A study of Mus musculus with 4 samples.

Results

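The S100 calcium-binding proteins expressed in the embryonic and newborn mouse mammary gland were described here by cell class and stage. The 10 genes followed, S100a1, S100a4, S100a6, S100a8, S100a9, S100a10, S100a11, S100a13, S100a14 and S100a16, were taken by symbol from the 30406 gene identifiers that every library's matrix listed. They were taken by gene name, with no threshold on a measured value. Droplet-based single-cell RNA sequencing (10x Chromium, 3′ tags counted as unique molecular identifiers, UMIs) had been performed on mammary tissue of female WT C57B6 mice (of the B6/N substrain, by the study's methods) from 3 embryonic days, E13.5, E14.5 and E15.5, and from the day of birth, P0, in 1 library per stage, each from tissue pooled over several embryos or pups. Before capture, CD45+, CD31+ and Ter119+ cells (leukocytes, endothelium and erythroid cells) had been excluded by flow cytometry, and EpCAM+ and EpCAM- cells had been sorted. The P0 tissue had been digested with more collagenase and less hyaluronidase than the embryonic tissue, and its suspension had also gone through lysis of red blood cells. No group carried a transgene, a mutation or a drug.

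A minimum of 5000 UMIs and a maximum of 6% mitochondrial UMIs per cell left 235 of 981 barcodes from E13.5, 76 of 807 from E14.5, 816 of 2642 from E15.5 and 503 of 1466 from P0. A cell was called epithelial where its summed Epcam, Krt8, Krt18, Krt5 and Krt14 UMIs exceeded its summed Col1a1, Col1a2 and Col3a1 UMIs, and mesenchymal in the opposite case. This gave 98, 45, 532 and 230 epithelial cells and 135, 31, 283 and 273 mesenchymal cells in order of stage, with 3 cells assigned to neither. Markers outside this rule followed it. Cdh1 (E-cadherin) stood between 147 and 539 CPM in the epithelial and between 1.19 and 15.8 CPM in the mesenchymal classes, and Pdgfra between 0.785 and 1.53 CPM and between 161 and 264 CPM. Median UMIs per cell were between 16438 and 26725 in the embryonic classes, but 9973 in epithelial and 8743 in mesenchymal cells at P0. Only 2 cell barcodes occurred in more than 1 library, and none of the kept cells had one. Levels are given as CPM, UMIs per 1000000, of the summed UMIs of a class with the exact 95% Poisson interval in brackets, and ratios of 2 classes with the exact conditional interval. These intervals cover counting error only. Because each stage was 1 library, no test between samples could be made, and stage cannot be told apart from library and dissection session. The same holds for the digestion and lysis at P0 and for the other Cell Ranger version used at E15.5. A gene was called higher or lower at a ratio of at least 2-fold, where its mean over both classes was at least 10 CPM. A gene under 10 CPM in 1 class could pass this minimum through the other class alone, where it was high.

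S100 proteins are small, mostly dimeric proteins with a pair of EF-hand motifs. Calcium binding opens a cleft through which they bind other proteins, among them annexins, cytoskeletal proteins and, outside the cell, receptors such as Ager and Tlr4. In epithelia several members are known from keratinocyte differentiation, and S100a8 and S100a9 are abundant in neutrophils. All 10 genes lie on mouse chromosome 3, in the gene cluster next to the epidermal differentiation complex that holds the loricrin and small proline-rich genes. In GENCODE M21 coordinates on GRCm38, 8 of them stand between chr3:90511034 and chr3:90695721, in the order S100a1, S100a13, S100a14, S100a16, S100a4, S100a6, S100a8 and S100a9. S100a11 (chr3:93520488-93526287) and S100a10 (chr3:93555080-93564643) lie apart from them on the plus strand. S100a1 and S100a9 are on the minus strand and the others on the plus strand. S100a4 overlaps the annotated transcript Gm42674 on the same strand, so its counts are uncertain to that extent.

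Most of the S100 genes fell into 3 broad patterns. S100a14, S100a16 and S100a11 were higher in epithelium than in mesenchyme at every stage. At E14.5 this was less secure, since S100a11 fell under 2-fold without the cells marked as doublets and S100a14 rested on few molecules. S100a6 and S100a1 rose most among the members tested in the epithelium. At P0, S100a6 stood 30.7-fold (26.6 to 35.6) and S100a1 68.7-fold (23.3 to 335) above the E13.5 epithelium. The S100a1 ratio rests on 3 UMIs at E13.5, and the gene passed the level minimum only through P0. Without the highest cell of each class it was 202 (35.9 to 7993), from 1 UMI at E13.5. A highest level in P0 epithelium was not particular to them, since S100a10, S100a11, S100a14 and S100a16 shared it. S100a10 stayed under 2-fold between tissues at every stage. S100a13 and, at E14.5 and E15.5, S100a4 had a higher level in mesenchyme, though the S100a13 interval held 1 at E13.5. S100a8 and S100a9 were nearly absent from both tissues, and their P0 mesenchymal level came from 2 cells.

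**Figure D1:**
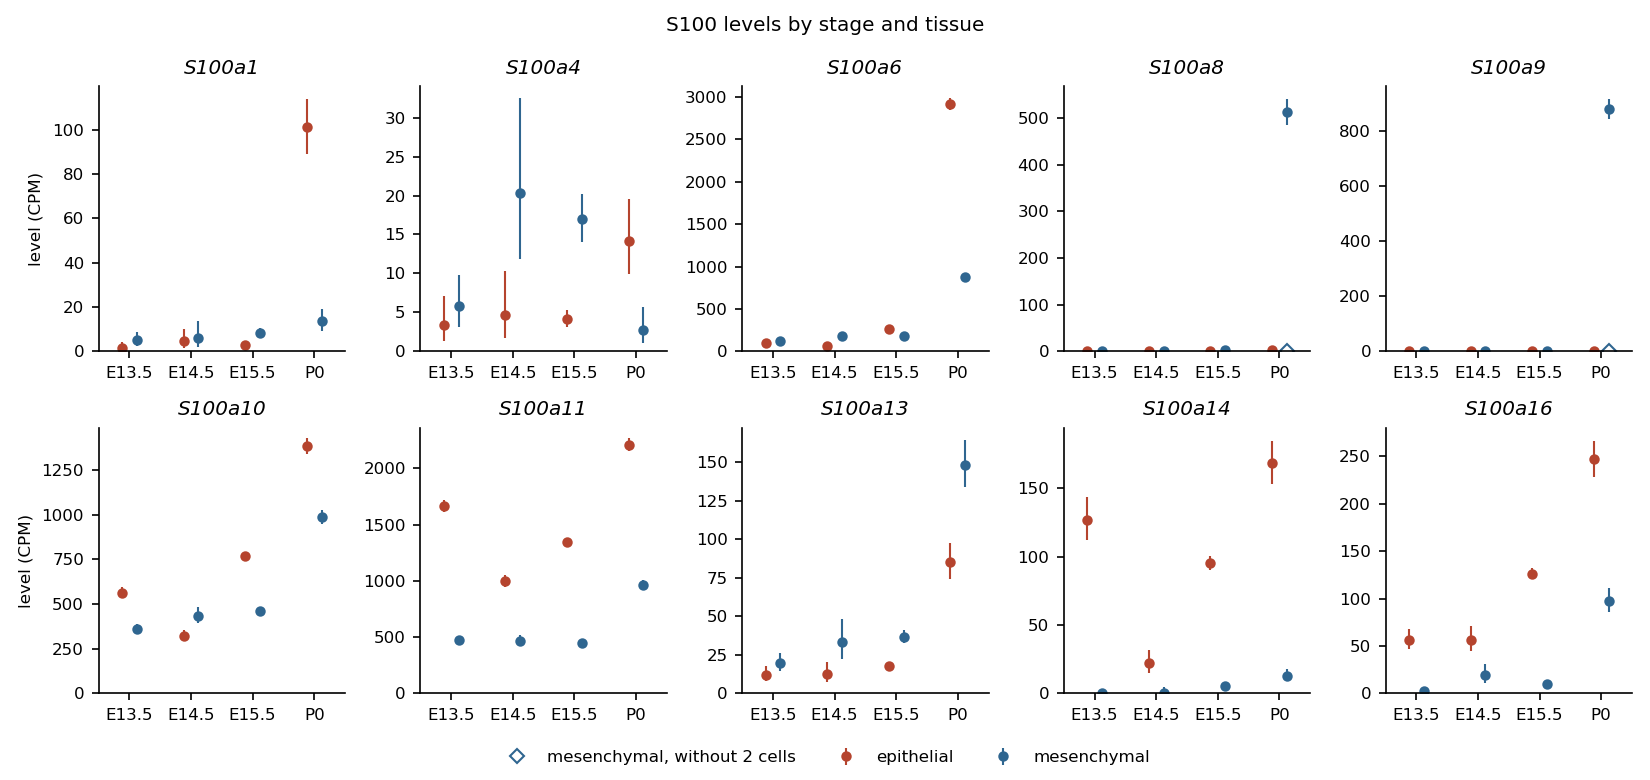
Level of each S100 gene (CPM, linear axes starting at 0 with a scale of their own) by stage in epithelial and mesenchymal cells, with points for the summed UMIs of a class and bars for the exact 95% Poisson interval. Open diamonds give the P0 mesenchymal level of S100a8 and S100a9 without the 2 cells that held nearly all their UMIs. S100a14 epithelial points lie above the mesenchymal points at every stage. S100a1, S100a6, S100a10, S100a11, S100a14 and S100a16 are highest in P0 epithelium.

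The comparison of the tissues asked which members separated epithelial from mesenchymal cells. The epithelial class was not limited to the mammary bud, since skin cells were not removed from it, and the suprabasal skin markers (Krt1, Krt10 and others) summed to 115, 468, 1344 and 87.2 CPM in it in order of stage. This list covers suprabasal cells, so other skin cells in the class are not gauged by it. The study counted fewer mammary epithelial cells than this class held at every stage, with the widest gap in proportion at E13.5. The part of skin cells in the E13.5 epithelial levels was not tested. Of the members past the level minimum, 3 of 6 were higher in epithelium and 0 lower at E13.5, where 9.33% of all genes were higher and 17.7% lower. The E14.5 library had 3 of 7 higher and 3 lower, against 14% (1201 of 8893) and 18.4% of all genes. Scrublet marked 11 of the 76 cells of that library as doublets, 9 of them mesenchymal, and without them 1 member was higher and 3 lower. The E14.5 log2 ratio was then 0.83 for S100a11 and 1.44 for S100a14 as a bound. In the E15.5 library these counts were 3 of 7 and 2, against 13.8% and 17.0%, and at birth they were 5 of 9 and 2, against 23.1% and 17.2%. The median ratio of the tested members was 2.52, 0.739, 1.66 and 2.29 in order of stage, with S100a14 at its bound at E13.5 and E14.5, against 0.919, 1.00, 0.976 and 1.25 over all genes tested. At P0 the median over all genes was itself shifted towards epithelium by 0.33 on the log2 scale.

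S100a14, a membrane-associated member known mainly from epithelial cells, had the highest epithelial over mesenchymal ratio of the 10 genes at E13.5, as a bound, and at E15.5 and P0. At E14.5 its place in the order rests on the floor of 3 counts, since without the cells marked by Scrublet its log2 bound and the log2 ratio of S100a16 were both 1.44, and after thinning the S100a14 value was -2.12 from 1 UMI. In epithelial cells it stood at 127 CPM (112 to 143), 22.0 (14.6 to 31.8), 95.6 (90.6 to 101) and 168 (153 to 185) in order of stage. Mesenchymal cells held 0 S100a14 UMIs at E13.5 and E14.5, then 5.51 CPM (3.94 to 7.50) in the E15.5 and 12.8 CPM (8.73 to 18.0) in the P0 library. The epithelial level was at least 102-fold higher at E13.5 and at least 6.14-fold higher at E14.5, taking the floor of 3 counts for a class at 0, with exact lower limits of 82.2 and 4.67. The later ratios were 17.3 (12.7 to 24.4) and 13.2 (9.21 to 19.5). Across stages the epithelial intervals did not overlap, and E14.5, where 45 cells gave 28 UMIs and 1 cell gave 12 of them, was the low point. After each cell was thinned to 5000 UMIs, the E14.5 epithelial level was 4.44 CPM, so the E14.5 value rests on few molecules.

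S100a14 was seen in part of the epithelial cells only. At least 1 UMI was found in 40.8% (95% binomial interval 31.0 to 51.2), 26.7% (14.6 to 41.9), 52.6% (48.3 to 56.9) and 57.4% (50.7 to 63.9) of them from the first stage to the last, and after thinning in 35.7%, 2.22%, 22.7% and 37.8%. The share in mesenchymal cells, the class in which the gene was scarce, was 0%, 0%, 4.59% and 4.03%, the zeros allowing, at the floor of 3 counts, up to 2.22% and 9.68% of cells with a UMI. At E15.5 the median depths were close, 24695.5 UMIs in epithelial and 24376 in mesenchymal cells. Of the 40 mesenchymal S100a14 UMIs at E15.5, 28 were in 1 cell with 72390 UMIs, which also held 596 UMIs of the epithelial genes and 691 of the collagen genes. Without the highest cell of each class the E15.5 ratio was 52.0 (29.7 to 101). In P0 mesenchyme the highest cells held 11 and 8 of the 32 S100a14 UMIs, and without them the level was 5.23 CPM.

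S100a16, a widely expressed member whose neighbour on the chromosome is S100a14, showed the same direction with a narrower gap at birth. Its epithelial level was 56.3 CPM (46.5 to 67.6), 56.5 (44.2 to 71.2), 126 (120 to 132) and 247 (228 to 267) from E13.5 to P0, and its mesenchymal level 2.08 (0.674 to 4.84), 19.1 (10.9 to 31.0), 9.78 (7.64 to 12.3) and 97.7 (85.8 to 111). Epithelium exceeded mesenchyme 27.1-fold (11.3 to 85.1), 2.96-fold (1.71 to 5.46), 12.9-fold (10.2 to 16.6) and 2.53-fold (2.18 to 2.94). The cell with 72390 UMIs also held 36 of the 71 mesenchymal S100a16 UMIs at E15.5, and without the highest cell of each class the E15.5 ratio was 24.9 (17.9 to 35.9). The E13.5 and E14.5 epithelial levels could not be separated from each other within counting error. However, 2 E14.5 epithelial cells held 22 and 18 of the 72 S100a16 UMIs. Without the highest 2 cells of each class the levels were 48.5 CPM at E13.5 and 27.3 CPM at E14.5. In the P0 mesenchyme 48.0% of cells (41.9 to 54.1) had an S100a16 UMI but 4.03% had an S100a14 UMI, with 245 UMIs of the first gene and 32 of the second. P0 epithelium held 645 and 440. The S100a16 counts in P0 mesenchyme thus stood in another proportion to S100a14 than in epithelium.

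RefSeq (GRCm38.p6) lists a pair of start sites for S100a16. The 250 bases before the second of them, chr3:90540896-90541145 on the plus strand, are shown because they hold, as S100a11 does, a match to the AP-1 motif TGANTCA, in capitals.
S100a16: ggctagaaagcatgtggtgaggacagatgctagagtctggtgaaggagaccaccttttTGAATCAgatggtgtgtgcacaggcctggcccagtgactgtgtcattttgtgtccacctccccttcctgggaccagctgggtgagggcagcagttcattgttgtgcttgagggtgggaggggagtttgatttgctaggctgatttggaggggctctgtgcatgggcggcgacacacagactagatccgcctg
The match begins 192 bases before the start. The motif was searched on both strands, which read alike for these letters, and 6.75% of the 32851 promoter windows of 250 bases held it, against 2 of the 9 windows found for the members. A match of letters does not show that a factor is bound.

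S100a11, an annexin A1 partner and a component of the keratinocyte cornified envelope, was higher in epithelium at all 4 stages. Its epithelial level was 1663 CPM (1608 to 1720), 997 (943 to 1053), 1349 (1330 to 1368) and 2208 (2152 to 2266) by stage. The mesenchymal level held between 450 and 476 CPM in the embryo and was 965 (927 to 1004) at P0. The ratio was 3.49 (3.27 to 3.74), 2.14 (1.91 to 2.40), 3.00 (2.89 to 3.11) and 2.29 (2.18 to 2.40). Without the E14.5 cells marked by Scrublet the log2 ratio at that stage was 0.83, under the 2-fold line. At least 96.3% of the cells of every class had an S100a11 UMI, so the tissues differed in amount per cell. The stretch before its start, chr3:93520246-93520487 on the plus strand, is shown because it holds 2 of the same AP-1 letters, in capitals, beginning 136 and 38 bases before the start.
S100a11: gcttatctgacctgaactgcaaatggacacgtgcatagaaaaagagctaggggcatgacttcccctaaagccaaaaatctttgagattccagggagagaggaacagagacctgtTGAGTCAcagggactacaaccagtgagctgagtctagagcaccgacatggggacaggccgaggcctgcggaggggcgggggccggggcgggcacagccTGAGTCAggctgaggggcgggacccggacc

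S100a10 forms a tetramer with annexin A2 at the plasma membrane, where it binds Ahnak. It did not pass the 2-fold line between tissues at any stage. The epithelial level was 563 CPM (531 to 597), 322 (292 to 355), 767 (753 to 782) and 1382 (1338 to 1428), and the mesenchymal level 362 (338 to 387), 436 (392 to 483), 463 (448 to 479) and 985 (947 to 1025). The ratio was 1.56 (1.42 to 1.70), 0.739 (0.640 to 0.854), 1.66 (1.59 to 1.72) and 1.40 (1.33 to 1.48). Epithelium was thus on the low side at E14.5 only, with every interval clear of 1. Its partner Anxa2 was higher in epithelium in 3 of the libraries, 2.31-fold (2.13 to 2.50) in E13.5, 2.63-fold (2.53 to 2.74) in E15.5 and 2.11-fold (1.98 to 2.25) in P0 cells, and stood at 1.22 (1.07 to 1.40) in E14.5 cells. Ahnak was higher 2.08-fold (1.90 to 2.28) at E13.5 and 2.01-fold (1.94 to 2.08) at E15.5, with ratios of 1.67 at E14.5 and 1.19 at P0.

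S100a6, or calcyclin, was first described as a gene regulated with cell growth and binds Cacybp and several annexins. Its tissue ratio was 0.803 (0.666 to 0.967), 0.359 (0.272 to 0.470), 1.45 (1.36 to 1.54) and 3.32 (3.17 to 3.48) by stage. It was therefore lower in epithelium at E14.5 and higher at P0. At E15.5, 2 epithelial cells held 497 and 441 of the S100a6 UMIs. Without the highest cell of each class the E15.5 ratio was 1.30 (1.22 to 1.39). Without the highest 2 of each class the levels were 197 CPM in epithelium and 168 CPM in mesenchyme. The epithelial level was 95 CPM (82.1 to 109), 66.8 (53.3 to 82.5), 261 (253 to 270) and 2918 (2853 to 2984). Mesenchymal cells had 118 CPM (105 to 133), 186 (158 to 218), 180 (171 to 190) and 879 (843 to 916). The share of epithelial cells with an S100a6 UMI was 48.0% at E13.5 and 97.0% at P0, and 22.4% and 94.8% after thinning, although P0 cells were the shallower ones.

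The region before S100a6, chr3:90612644-90612881 on the plus strand, is shown because the level of this member ranged so widely within the epithelium. The capitals mark a CCAAT box on the reverse strand, whose first base lies 228 bases before the start.
S100a6: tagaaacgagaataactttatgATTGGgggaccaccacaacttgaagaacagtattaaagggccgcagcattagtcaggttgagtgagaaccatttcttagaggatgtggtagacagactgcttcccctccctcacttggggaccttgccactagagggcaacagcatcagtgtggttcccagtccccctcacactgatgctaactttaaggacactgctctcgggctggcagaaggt
CCAAT was present on either strand in 33.8% of all promoter windows and in 1 of the members' 9, and TATAAA in 12.4% of all windows and in 2 of the members', those of S100a4 and S100a8.

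S100a1 and S100a13 are transcribed away from each other. S100a1 is best known from striated muscle, where it acts on calcium handling, and S100a13 takes part in the release of FGF1 and interleukin 1 alpha, which lack a signal peptide. Between their annotated ends lie 42 bases with 54.8% G and C, chr3:90514393-90514434, shown here on the S100a13 strand because both genes share this stretch. None of the 3 motifs searched was found in it.
S100a13: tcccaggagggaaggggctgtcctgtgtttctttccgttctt
The neighbours differed in direction at P0 only. S100a13 stood at 12.2 CPM (7.92 to 18.1), 12.6 (7.18 to 20.4), 17.8 (15.7 to 20.1) and 85.3 (74.5 to 97.3) in epithelium and at 19.5 (14.3 to 26.0), 33.4 (22.2 to 48.3), 36.6 (32.4 to 41.3) and 148 (134 to 164) in mesenchyme. It was lower in epithelium at E14.5 (0.376, 0.190 to 0.720) and E15.5 (0.485, 0.407 to 0.578), and the ratio was 0.627 (0.370 to 1.04) at E13.5 and 0.575 (0.485 to 0.681) at P0.

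S100a1 was scarce in every embryonic class, from 1.47 CPM (0.303 to 4.29) in E13.5 epithelium to 8.26 CPM (6.31 to 10.6) in E15.5 mesenchyme. At P0 it reached 101 CPM (89.2 to 114) in epithelium and 13.6 CPM (9.39 to 18.9) in mesenchyme, a 7.45-fold (5.2 to 11) difference. An S100a1 UMI was present in 53.9% of P0 epithelial cells (47.2 to 60.5) but in 7.33% of the deeper E15.5 epithelial cells (5.26 to 9.89). The thinned shares were 33.5% and 1.5%. At E15.5 the ratio had the opposite sense, 0.372 (0.247 to 0.559), from 44 and 60 UMIs, at a mean level below the 10 CPM minimum.

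S100a4, a non-muscle myosin partner in common use as a fibroblast marker, was a low-level gene here. In mesenchymal cells it had 5.81 CPM (3.18 to 9.75), 20.3 (11.8 to 32.5), 16.9 (14.1 to 20.2) and 2.79 (1.12 to 5.75) from E13.5 to P0, and in epithelial cells 3.43 (1.38 to 7.06), 4.71 (1.73 to 10.3), 4.13 (3.14 to 5.32) and 14.2 (9.96 to 19.5). It was lower in epithelium at E14.5 (0.232, 0.0750 to 0.617) and at E15.5 (0.244, 0.176 to 0.335). At both stages it passed the level minimum only through the mesenchymal class, where it was high, so little is read from these calls. At E13.5 the ratio was 0.590 (0.201 to 1.56) from 7 epithelial and 14 mesenchymal UMIs, under the level minimum. At P0 the ratio was 5.07 (2.23 to 13.48) from 37 epithelial and 7 mesenchymal UMIs, with the mean of both classes under the minimum. Only 2.56% of P0 mesenchymal cells had an S100a4 UMI (1.04 to 5.21), against 25.4% at E15.5 (20.5 to 30.9).

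S100a8 and S100a9 form calprotectin, the calcium- and zinc-binding heterodimer of neutrophils. Neither gene had a UMI at E13.5 or E14.5, which allowed, at the floor of 3 counts, at most 3.58 CPM in any of these 4 classes. At P0 the mesenchymal class held 1285 S100a8 UMIs (512 CPM, 485 to 541) and 2205 S100a9 UMIs (879 CPM, 843 to 917). These made both genes lower in epithelium, with ratios of 0.00672 (0.00306 to 0.0128) and 0.00305 (0.00122 to 0.00628). A single P0 cell carried 713 S100a8 and 1425 S100a9 UMIs of its 9888 and another carried 570 and 775 of its 5715. They also held 420 and 129 Ngp UMIs, 339 and 73 Camp UMIs and 57 and 153 Retnlg UMIs, all genes of neutrophil granules or neutrophils. Their collagen sums were 7 and 5 UMIs and their epithelial sums 0, although the sort had excluded CD45+ cells. Without the 3 P0 mesenchymal cells that had at least 5 leukocyte gene UMIs, neither gene was called in that comparison.

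Outside those cells calprotectin transcripts were rare. P0 epithelium held 9 S100a8 UMIs in 6 cells and 7 S100a9 UMIs in 5 cells, shares of 2.61% and 2.17%. The mesenchymal shares, with the cells above included, were 1.47% and 2.56%, and no difference between the tissues was read from so few cells. In the E15.5 library 26 S100a8 UMIs were spread over 19 mesenchymal cells (6.71%, 4.09 to 10.3) with at most 4 in a cell, and 2 UMIs in epithelium (0.376%, 0.0456 to 1.35). S100a9 had 0 UMIs in those mesenchymal cells and 6 in epithelium, 5 of them in cells high for Ly6d.

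**Figure D2:**
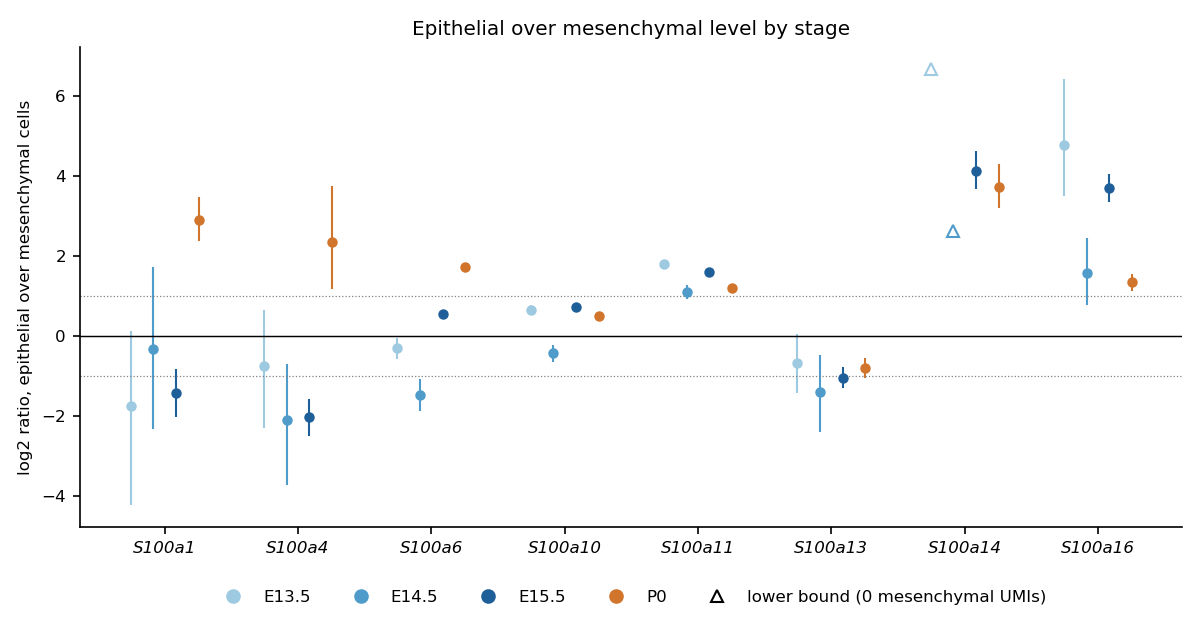
Log2 ratio of the summed epithelial over the summed mesenchymal CPM for 8 S100 genes at the 4 stages, with bars for the exact 95% interval, open triangles for lower bounds where mesenchyme had 0 UMIs, and dotted lines at 2-fold. S100a11, S100a14 and S100a16 lie above the upper dotted line at every stage, while S100a6 moves from -1.48 at E14.5 to 1.73 at P0. The E14.5 cells marked as doublets by Scrublet are included.

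Changes with age were read within each tissue. The epithelial class kept its skin cells, whose share may differ between stages, and their part in the epithelial changes was not tested. In the epithelium, S100a6 and S100a16 rose 2.75-fold (2.38 to 3.19) and 2.23-fold (1.85 to 2.72) from E13.5 to E15.5, the 2 higher and 0 lower of 6 members tested, where 11.6% of all genes were higher and 11.4% lower. From E15.5 to P0, 3 of 7 were higher and 0 lower, against 12.9% and 13.6% of all genes. These were S100a1 (32.8-fold, 23.8 to 46.2), S100a6 (11.2-fold, 10.7 to 11.6) and S100a13 (4.80-fold, 3.99 to 5.77). The ratios of the other 4 were between 1.64 for S100a11 and 1.96 for S100a16, just inside the line. Markers of other epithelial cells moved over the same spans. Of the suprabasal skin markers, 6 of 7 tested were higher at E15.5 than at E13.5 and 5 of 6 lower at P0 than at E15.5, and the 4 luminal progenitor markers went from 15.7 CPM at E15.5 to 2104 CPM at P0. Without the E15.5 cells that had at least 3 Krt1 and Krt10 UMIs, S100a6 was the 1 member called from E13.5 to E15.5, with S100a16 at a log2 ratio of 0.70 and S100a14 at -0.76. From E15.5 to P0 5 members were then called, with S100a14 at 1.16 and S100a16 at 1.43 besides the 3 above. In this setting cells with these keratins were left in the E13.5 and P0 classes, so the classes compared were not filtered alike. The part of the luminal cells in these ratios was not tested.

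Over the whole span from E13.5 to P0, 5 of 7 epithelial members were higher and 0 lower, where 16% of all genes were higher and 18.8% lower. S100a13 stood 6.97-fold (4.6 to 11), S100a16 4.38-fold (3.59 to 5.39) and S100a10 2.45-fold (2.30 to 2.62) above E13.5, beside S100a1 and S100a6. S100a11 and S100a14 both had a ratio of 1.33, with intervals of 1.27 to 1.39 and 1.14 to 1.55. Between these end points the 2 genes thus changed least among the 7, although S100a14 stood at 22.0 CPM at E14.5. Both were higher in epithelium than in mesenchyme at every stage, though less securely at E14.5. S100a16, which rose 4.38-fold, was also higher in epithelium at every stage. The median over all genes was lower at P0 by 0.10 on the log2 scale against E15.5 and by 0.16 against E13.5.

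In the mesenchyme only S100a4 was called between E13.5 and E15.5 (2.91-fold, 1.67 to 5.49), 1 higher and 0 lower of 5, against 5.47% and 8.96% of all genes. It stood at 5.81 and 16.9 CPM, so it passed the level minimum only through the E15.5 class, where it was high. It was not called at a minimum of 20 CPM or after thinning, so little is read from this call. At P0 7 of 8 members were higher than at E15.5 and 0 lower, where 14.1% of all genes were higher and 23.8% lower. S100a16 had risen 9.99-fold (7.64 to 13.2), or 19.4-fold (13.6 to 28.5) without the highest cell of each class, which at E15.5 was the mixed cell described above. Beside it, S100a6 had risen 4.87-fold (4.55 to 5.22), S100a13 4.05-fold (3.45 to 4.76), S100a11 2.15-fold (2.03 to 2.26) and S100a10 2.13-fold (2.02 to 2.24). The remaining 2 calls were S100a8 and S100a9, which rested on the cells with neutrophil genes. S100a4 went the other way, at 0.165 (0.0649 to 0.350) of its E15.5 level, but its mean lay just under the level minimum.

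Against E13.5, all 7 tested members were higher in P0 mesenchyme and 0 lower, while 13.8% of all genes were higher and 33.3% lower. S100a16 stood at 47.1-fold (19.9 to 146), S100a13 at 7.60-fold (5.60 to 10.5) and S100a6 at 7.43-fold (6.56 to 8.43). S100a10 and S100a11 were 2.72-fold (2.52 to 2.94) and 2.03-fold (1.89 to 2.18) higher, the latter close to the line. The remaining 2 were S100a8 and S100a9, and without the 3 cells with leukocyte genes 4 of 5 tested members were higher, S100a11 standing at a log2 ratio of 0.9995, just under the line. The median over all genes was lower at P0 by 0.37 on the log2 scale against E15.5 and by 0.56 against E13.5. The erythroid marker list stood at 10383 CPM in P0 mesenchyme, with all 5 genes detected, and at 0.415 CPM at E13.5. The leukocyte and macrophage list stood at 113 and 3.32 CPM. Without the 4 P0 mesenchymal cells that had at least 20 haemoglobin UMIs, all 97 member ratios over the comparisons stayed within their counting intervals. Without the 3 cells with leukocyte genes the log2 ratio to E15.5 was 2.30 for S100a6, 1.10 for S100a10, 1.08 for S100a11, 2.03 for S100a13 and 3.33 for S100a16, and these 5 were the members called. The part of these RNAs in the remaining cells was not tested.

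In E15.5 epithelial cells, Ly6d was used to divide the epithelium. Ly6d encodes a GPI-anchored surface protein of stratified epithelia. The study names Ly6d and Anxa1, both reported for luminal cells, as potential early lineage markers in E15.5 mammary epithelial cells. Skin cells had been removed there but not here. A class of 47 cells with at least 3 Ly6d UMIs was set against 485 with fewer. S100a14, S100a16, S100a11 and, through 1 cell, S100a6 were higher in the Ly6d high cells, and S100a13 was lower. These were 4 higher and 1 lower of 6 tested, where 4.71% of all genes were higher and 9.93% lower. The median over the members was 2.28 and the median over all genes was lower by 0.20 on the log2 scale. Ly6d high cells were also deeper, with a median of 32772 UMIs against 24309.

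S100a14 had 348 CPM (319 to 379) in Ly6d high and 65.4 (61.0 to 70.0) in Ly6d low cells, a 5.32-fold (4.76 to 5.94) difference. A UMI was present in 97.9% (88.7 to 99.9) and 48.2% (43.7 to 52.8) of the cells, and after thinning in 70.2% and 18.1%. S100a16 followed at 413 (381 to 446) and 91.6 CPM (86.4 to 97.0), 4.51-fold (4.08 to 4.97), with 76.6% and 27.8% of thinned cells. S100a11 was present in all cells of both classes and was 2.11-fold (2.04 to 2.19) higher, at 2544 and 1206 CPM. S100a13 stood at 4.59 CPM (1.84 to 9.45) from 7 UMIs against 19.3 (17.0 to 21.9), a ratio of 0.237 (0.0943 to 0.496). It passed the level minimum only through the Ly6d low class, where it was high. S100a10 had a ratio of 1.03 (0.969 to 1.09).

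Across bins of Ly6d the epithelial members stood higher in the top bin than in cells without Ly6d. S100a14 stood at 58.4 CPM in the 434 cells without Ly6d, 111 in the 51 cells with 1 or 2 UMIs, 279 in 8 cells with 3 or 4, 130 in 6 cells with 5 to 9 and 394 in 33 cells with 10 or more. The corresponding S100a16 levels were 78.7, 176, 260, 214 and 476 CPM. S100a11 had 1180, 1375, 2182, 2391 and 2650 CPM. The middle bins held few cells and broke the order for S100a14 and S100a16, whereas the bin of 1 or 2 UMIs already stood above the cells without Ly6d for all 3 genes. The suprabasal keratins changed over the same bins, Krt1 at 13.2, 118, 1673, 45.5 and 749 CPM and Krt10 at 38.5, 298, 1799, 162 and 1210 CPM. Both also dipped in the bin of 5 to 9. The part of skin cells in the order of the bins was not tested. In the bin of 10 or more, 1 cell with 697 Krt4 UMIs held 128 of the bin's 438 S100a14 UMIs and 68 of its 529 S100a16 UMIs.

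**Figure D3:**
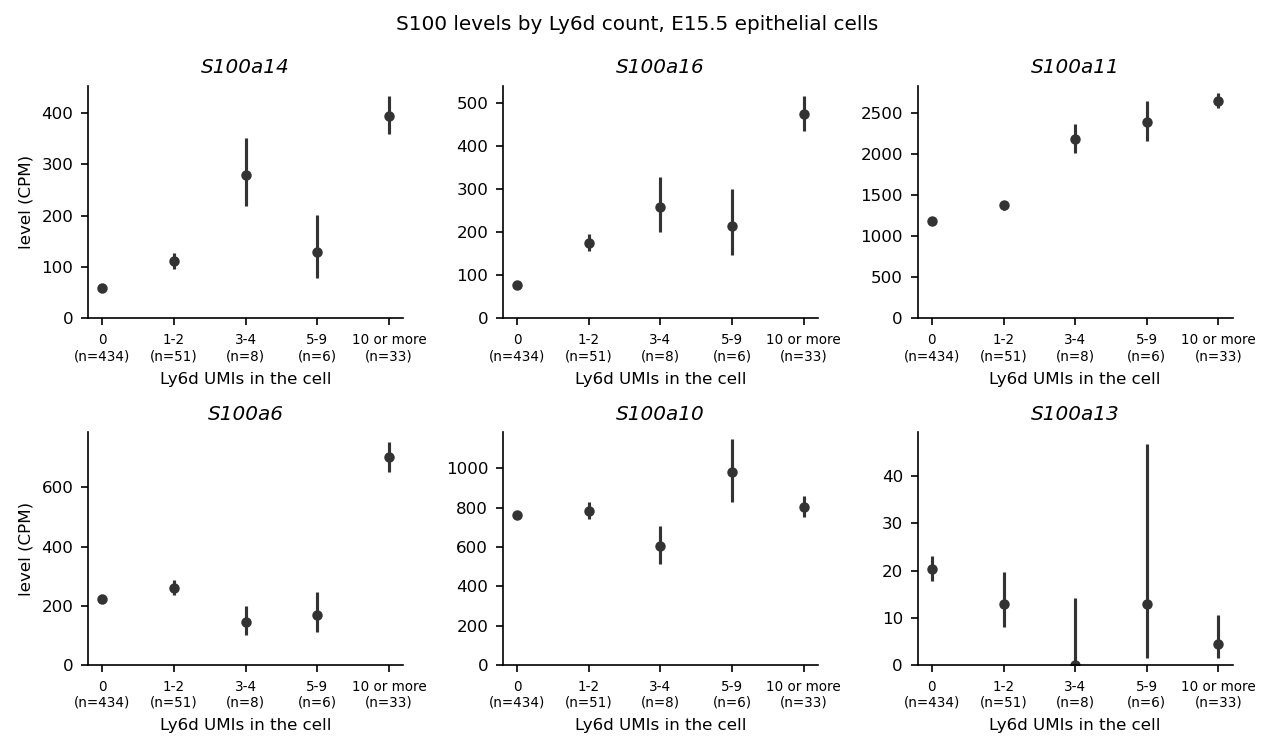
Level of 6 S100 genes (CPM, linear axes starting at 0) in E15.5 epithelial cells binned by Ly6d UMIs (0, 1 to 2, 3 to 4, 5 to 9, 10 or more), with bars for the exact 95% Poisson interval. S100a14 goes from 58.4 to 394 CPM and S100a11 from 1180 to 2650 CPM between the outer bins. In the highest bin 1 cell with 697 Krt4 UMIs held 128 of the bin's 438 S100a14 UMIs and 497 of its 780 S100a6 UMIs.

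The S100a6 difference rested on 1 cell. Its summed level was 553 CPM (516 to 591) in Ly6d high and 226 (218 to 235) in Ly6d low cells, 2.44-fold (2.26 to 2.64). Yet fewer Ly6d high cells had an S100a6 UMI, 59.6% against 78.1%, or 34.0% against 46.2% after thinning, and the median cell stood at 31.8 and 96.4 CPM. The highest cell held 497 S100a6 UMIs in the Ly6d high class and 441 in the Ly6d low class, where it raised the level and so narrowed the difference. Without both, the levels were 233 and 192 CPM, a ratio of 1.21 (1.08 to 1.36), and without the highest 2 cells of each class they were 169 and 187 CPM, with the direction turned. The 497 and 441 UMI cells held 697 and 279 UMIs of Krt4 and 1024 and 878 of Krt15, keratins known from stratified epithelia. They also held 128 and 76 S100a14 UMIs and 68 and 45 S100a16 UMIs.

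The suprabasal skin markers fixed for the study (Krt1, Krt10 and others) moved with Ly6d. Their list includes Krtdap, which the authors report for their luminal-like cluster of E15.5 mammary cells. All 8 that passed the minimum were higher in Ly6d high cells, with a summed level of 6819 against 689 CPM, while all 5 mammary basal-like markers (among them Pthlh and Wnt10b) were lower. A division by summed Krt1 and Krt10 of at least 3 UMIs, made after the values were seen, left 29 Ly6d high cells with these keratins and 18 without. Among cells without them, S100a14 was 7.23-fold (6.17 to 8.44), S100a16 4.87-fold (4.15 to 5.70) and S100a11 1.92-fold (1.80 to 2.04) above Ly6d low cells. The Ly6d high cell with Krt4 was 1 of these 18 and held 128 of their 217 S100a14 UMIs. Without the 2 cells with Krt4 the 3 ratios were 3.60 (2.85 to 4.51), 3.59 (2.95 to 4.33) and 1.77 (1.66 to 1.89). Among cells with Krt1 or Krt10 they were 2.87 (2.38 to 3.47), 2.39 (2.06 to 2.78) and 1.94 (1.84 to 2.06). S100a6 had a ratio of 5.54 (5.07 to 6.05) among cells without these keratins, 1.54 (1.28 to 1.83) when the cells with Krt4 were also left out, and 0.865 (0.729 to 1.02) among cells with them. S100a13 stood at 0.503 (0.162 to 1.19) among cells without them, where it was no longer called, and at 0.110 (0.0127 to 0.432) among cells with them.

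**Figure D4:**
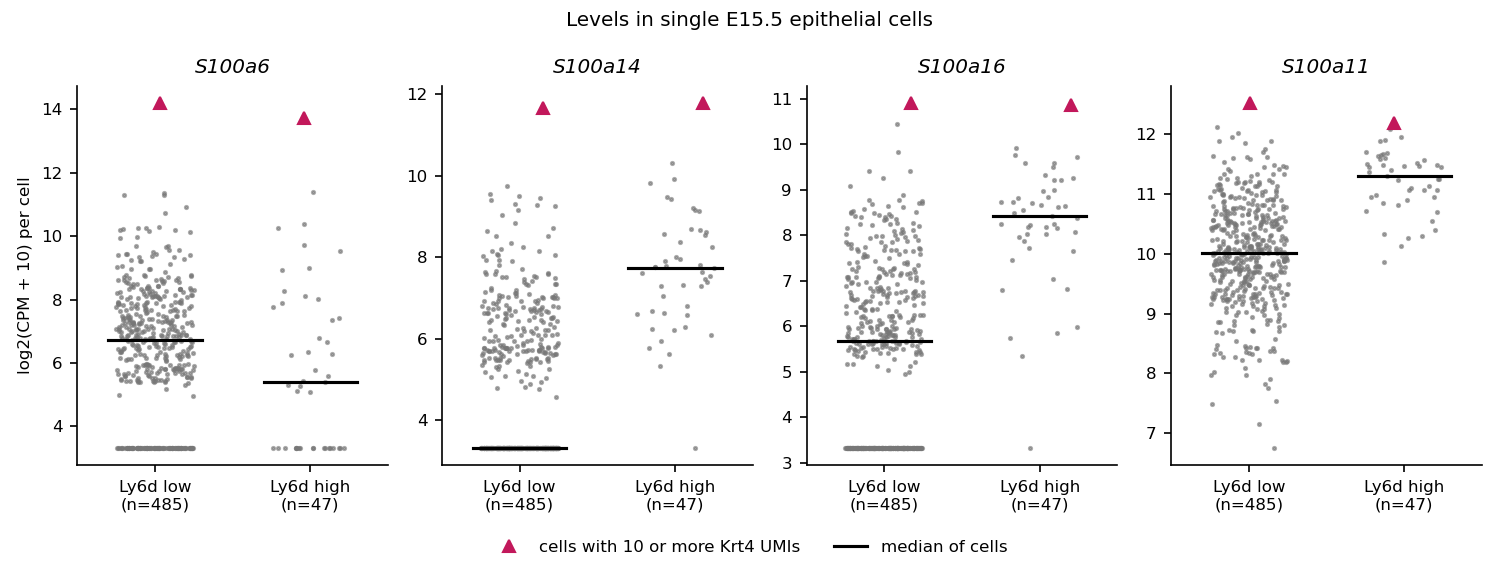
S100 levels per cell, as log2(CPM + 10), in Ly6d low (485) and Ly6d high (47) E15.5 epithelial cells, with a point for each cell, a line at the median and triangles for the 2 cells with at least 10 Krt4 UMIs. For S100a14 the median cell is at 204 CPM in Ly6d high and 0 in Ly6d low cells, whereas for S100a6 the median is the lower one in Ly6d high cells and a triangle is the highest point of each class.

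Proliferation, for which calcyclin is named, divided the E15.5 epithelium without a call. Among 122 cells with at least 2 Top2a and Mki67 UMIs against 410 with fewer, 0 of 6 members were higher and 0 lower, where 3.27% of all genes were higher and 0.422% lower. S100a6 stood at 240 CPM (226 to 255) in cycling and 271 (261 to 281) in other cells, a ratio of 0.885 (0.824 to 0.951). The 2 cells with Krt4, at 497 and 441 S100a6 UMIs, were the highest of the other cells. Without the highest cell of each class the S100a6 ratio was 0.989 (0.915 to 1.07). Without the highest 2 of each class the levels were 203 CPM in cycling and 177 CPM in other cells, with the direction turned. S100a14 had the widest ratio, 0.614 (0.538 to 0.699), and S100a11 stood at 0.794 (0.769 to 0.820). Of the suprabasal skin markers, 6 of 7 tested were lower in cycling cells, with a summed level of 704 against 1631 CPM. Without the cells that had at least 3 Krt1 and Krt10 UMIs the log2 ratio was -0.55 for S100a14 and -0.33 for S100a11. For S100a6 it was then -0.56, with the 2 cells with Krt4 still included.

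At P0 the epithelium was divided by the myoepithelial genes Acta2, Myh11 and Cnn1. The 18 cells with at least 5 of these UMIs had 548 CPM of S100a6 (449 to 662) against 3109 (3039 to 3180) in the other 212, a ratio of 0.176 (0.144 to 0.213). S100a14 was also lower, at 2 UMIs and a ratio of 0.0565 (0.00683 to 0.205). These 2 were the only calls among 7, with 0 higher, where 12.2% of all genes were higher and 19.7% lower. S100a1 stood at 0.641 (0.337 to 1.12), S100a10 at 0.787 (0.683 to 0.903) and S100a11 at 0.821 (0.736 to 0.914). These calls depend on the minimum of 5 UMIs. At a minimum of 2 UMIs, which gave 33 cells against 197, no member was called, with S100a6 at 0.733 (0.683 to 0.787) and S100a14 at 0.896 (0.671 to 1.18). The 15 cells with 2 to 4 of these UMIs, set apart after the values were seen, had 3900 CPM of S100a6, against 3039 in cells with fewer.

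A further division of P0 epithelium, chosen after values were seen, set 35 cells with more hormone-sensing than luminal progenitor marker UMIs (Prlr, Cited1, Esr1 and Pgr against Aldh1a3, Kit, Elf5 and Csn3) beside 179 with the opposite order. S100a6 had 4043 and 2430 CPM in them, a ratio of 1.66 (1.58 to 1.75). S100a16 stood at 0.544 (0.428 to 0.686), S100a1 at 0.653 (0.458 to 0.913) and S100a10 at 0.716 (0.655 to 0.782). None of these passed 2-fold, and the first class was deeper, at a median of 14038 against 9770 UMIs. The 16 cells with equal sums, left out of this division, had 4856 CPM of S100a6 (4501 to 5231) and 315 CPM of S100a16 (230 to 421), above both classes.

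P0 mesenchyme was divided by Pi16 and Dpp4, genes of adventitial fibroblasts. In the 156 positive cells against the 117 negative ones, 0 of 9 members were higher and 2 lower, where 6.66% of all genes were higher and 6.32% lower. S100a13 stood at 1.71 (1.35 to 2.18), S100a16 at 1.64 (1.23 to 2.21), S100a11 at 1.34 (1.23 to 1.46) and S100a6 at 1.00 (0.918 to 1.09). S100a4, with 5 and 2 UMIs, could not be compared. The 2 lower members were S100a14 (0.0862, 0.0220 to 0.246) and S100a1 (0.329, 0.149 to 0.695). Both passed the level minimum only through the negative cells, where they were high. In the negative class 2 cells held 11 and 8 of the 28 S100a14 UMIs, and without them its level went from 29.7 to 9.77 CPM. The number of lower calls was not stable. It was 4 at a minimum of 3 Pi16 and Dpp4 UMIs, 0 at a minimum of 20 CPM and 1 after thinning, where 2 members were called higher. Epithelial markers stood at 763 CPM in the negative and 137 in the positive cells, and their part in these calls was not tested. Erythroid markers stood at 27545 and 23.7 CPM. When the 4 P0 mesenchymal cells with at least 20 haemoglobin UMIs were left out, all 97 member ratios over the comparisons stayed within their counting intervals.

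The partner genes were compared between classes in the same way. Of 11 partners listed, 9 passed the level minimum at P0, of which 4 were higher and 0 lower in epithelium, against 23.1% and 17.2% of all genes. At E15.5 these were 4 and 1 of 9, against 13.8% and 17.0%, at E14.5 they were 2 and 1 of 8, against 14% and 18.4%, and at E13.5 they were 4 and 1 of 8, against 9.33% and 17.7%. Anxa1, the annexin bound by S100a11, was 127-fold (58.2 to 348), 48.0-fold (8.36 to 1923), 20.7-fold (17.5 to 24.8) and 2.77-fold (2.60 to 2.96) higher in epithelium from E13.5 to P0, and in the mesenchyme it rose 198-fold (90.7 to 541) from E13.5 to P0. It was also 3.78-fold (3.57 to 4.0) higher in Ly6d high cells. Anxa6 was lower in the epithelium of all 3 embryonic libraries, with ratios of 0.100 (0.0660 to 0.146), 0.225 (0.161 to 0.310) and 0.410 (0.371 to 0.453). Myh9, the heavy chain of non-muscle myosin bound by S100a4, was 10.4-fold (8.81 to 12.3) higher in epithelium at P0.

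Cacybp, the calcyclin-binding protein, fell from E15.5 to P0 to 0.25 (0.220 to 0.282) of its level in epithelium and to 0.140 (0.118 to 0.164) in mesenchyme, where S100a6 had risen in both. Anxa11, another S100a6 partner, rose 9.42-fold (5.74 to 16.5) in epithelium from E13.5 to P0. The receptors Ager and Tlr4 did not reach the minimum in any comparison, with at most 24 UMIs of either in a class.

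Of 6 other S100 genes, 2 passed the minimum at P0. S100g, the vitamin D-dependent calcium carrier calbindin-D9k, stood at 47.0 CPM in P0 epithelium and was 23.6-fold (9.84 to 74.0) above mesenchyme and 672-fold (118 to 26775) above E15.5 epithelium, where it had 1 UMI. S100b, a marker of Schwann cells among others, had 21.1 CPM in P0 mesenchyme and 0.765 in epithelium, a ratio of 0.0362 (0.00427 to 0.137). Of the 15 genes of the neighbouring epidermal differentiation complex, 3 of the 4 tested were higher in Ly6d high cells, where 4.71% of all genes were. Sprr1b was 12.8-fold (11.7 to 13.9), Sprr1a 10.2-fold (9.63 to 10.9) and Lor 2.76-fold (1.78 to 4.18) higher. Sprr1a had already risen 33.9-fold (21.2 to 58.3) in epithelium from E13.5 to E15.5.

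Over the 8 classes of stage and tissue, each member was set beside 6224 other genes by Pearson's r of log2(CPM + 10), as a description, since 2 classes shared each library. The genes named are those with the highest values, a choice that by itself gives a high r. The share of genes with an r over 0.9 was between 0.0482% for S100a4 and 1.51% for S100a8. S100a6 ran closest to Plaur (0.991), Piezo1 (0.985) and Pvr (0.975), and S100a1 to Efhd2 (0.994), Csn3 (0.982) and Snorc (0.982). For S100a14 the nearest were Rab25 (0.982), Ndfip2 (0.973) and Cldn3 (0.971), and for S100a11 Apoc1 (0.992), Phlda1 (0.984) and Cldn3 (0.977). S100a16 was nearest to Rnh1 (0.955) and Ahnak (0.954), S100a10 to Slc44a1 (0.970), S100a13 to Smim14 (0.976) and S100a4 to Ptms (0.965). Among members, S100a11 and S100a14 had an r of 0.959 and S100a6 and S100a10 of 0.922, while S100a8 and S100a9 (0.997) were high in 1 class only.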

How the data were processed

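Single cells of mammary tissue from 4 stages, 1 library each, were analysed. The authors deposited raw counts of UMIs per gene and barcode, made with Cell Ranger on the mm10 genome, and the file headers name version 3.1.0 for E15.5 and 6.0.0 for the other libraries. Genes were joined by Ensembl identifier. Cells were kept at 5000 UMIs or more and 6% mitochondrial UMIs or less, the filter given in the study's methods, which kept more cells at each stage here than the study states. Matrices held 807 to 2642 barcodes and 3577372 to 28461610 UMIs. Doublets in the suspension had been excluded by gating in the sort, before capture. Doublets formed at capture were not removed, and Scrublet was run as an alternative. No per-sample column was left unmapped (0).

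UMIs were summed per class and given as CPM with exact Poisson intervals. Ratios had exact conditional binomial intervals, with a floor of 3 counts for a class at 0. Shares of cells had exact binomial intervals at 95%, and were repeated with each cell thinned to 5000 UMIs. A call needed a ratio of at least 2-fold and a mean of at least 10 CPM over both classes. With 1 library a group no p-value was computed, so the calls describe these libraries. Tested on simulated counts with 4-fold changes, the intervals held the true value for 95.1% of 7750 genes in the E15.5 tissue comparison and for 96.0% of 7247 genes in the Ly6d comparison. The counts were drawn from the Poisson distribution that the intervals assume, so a share near 95% was built in. It checks the calculation only, since differences between cells were not simulated. The genes to describe were all members by symbol, fixed lists of partners, other S100 genes, genes of the epidermal differentiation complex and cell type markers, and the 3 genes most alike in pattern to each member. The members and lists were chosen with earlier results of these data known. Promoter sequences came from RefSeq on GRCm38.p6 and were trimmed at GENCODE exons. S100a14 and S100a10 were not matched there. Analyses used Python 3.11.15, numpy 2.4.6, pandas 2.3.3, SciPy 1.17.1 and scanpy 1.11.5.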

Additional observations from a re-analysis of the deposited data

Results flagged for a closer look

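For 4 members the epithelial over mesenchymal ratio lay on one side of 1 at some stages and on the other side at others, with intervals clear of 1. The difference between stages was not tested, since each stage was 1 library. S100a1 had a ratio of 0.372 at E15.5 and 7.45 at P0. S100a4 had 0.232 and 0.244 in the E14.5 and E15.5 libraries but 5.07 at birth. For S100a6 the ratio was 0.803, 0.359, 1.45 and 3.32 in order of stage, and the E15.5 value was 1.30 (1.22 to 1.39) without the highest cell of each class. S100a10 stood at 1.56 at E13.5, 1.66 at E15.5 and 1.40 at P0 but at 0.739 at E14.5, the stage with 76 kept cells. Scrublet marked 11 of these cells as doublets, against 0 to 3 cells in the other libraries, and without them the E14.5 log2 ratio was -0.41 for S100a10, -1.35 for S100a6 and -1.71 for S100a4.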

How the results depend on the processing

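Of 1333 ratios of single members over all settings, 1146 stayed within their counting interval, 182 moved beyond it and 5 reversed. Of 498 counts of members called, 452 stayed within 1.5 times the main count and 46 moved. The reversed log2 ratios were S100a14 between tissues at E14.5, from 2.62 to -2.12 with cells thinned to 5000 UMIs, and, without the cells with leukocyte genes (chosen after seeing the data, like the settings on haemoglobin, Krt4, mixed cells and the highest cell), S100a8 between tissues at P0 (-7.22 to 2.10), S100a9 there (-8.36 to 0.41), S100a8 in mesenchyme from E15.5 to P0 (7.16 to -2.15) and from E13.5 to P0 (8.68 to -0.63). These rest on classes at or near 0 UMIs and their floors. Without those cells the members lower in epithelium at P0 went from 2 to 0, and those higher in mesenchyme from E13.5 to P0 from 7 to 4. Calling at 1.5-fold gave 1 member lower between tissues at E13.5 (from 0), 7 higher from E15.5 to P0 in epithelium (from 3), 3 higher from E13.5 to E15.5 in mesenchyme (from 1), 1 lower in cycling cells (from 0), 2 higher in Pi16 Dpp4 positive cells (from 0) and 4 lower in myoepithelial cells (from 2). At 3-fold, 1 was higher (from 3) and 1 lower (from 3) between tissues at E14.5, 1 lower at E15.5 (from 2), 3 higher at P0 (from 5), 0 higher from E13.5 to E15.5 in epithelium (from 2) and in mesenchyme (from 1), and 2 higher in Ly6d high cells (from 4). With a minimum of 20 CPM, 1 member was lower between tissues at E15.5 (from 2), 0 higher in mesenchyme from E13.5 to E15.5 (from 1), 0 lower in Ly6d high (from 1) and 0 lower in Pi16 Dpp4 positive cells (from 2). A minimum of 5 CPM gave 2 higher from E13.5 to E15.5 (from 1) and 1 lower from E15.5 to P0 (from 0) in mesenchyme. Thinning gave 0 (from 1) and 1 (from 0) for the same counts, and 2 higher (from 0) and 1 lower (from 2) in Pi16 Dpp4 positive cells. The E15.5 to P0 mesenchymal count of lower members was also 1 with clear tissue calls, without mixed cells and without Scrublet calls, and under the same 3 settings the lower members in Pi16 Dpp4 positive cells were 1 (from 2). Without Scrublet calls and with the mean of per-cell CPM, 1 member was higher between tissues at E14.5 (from 3). The per-cell mean also gave 1 lower at E15.5 (from 2), 1 higher from E13.5 to E15.5 in epithelium (from 2) and 2 in mesenchyme (from 1), the last also with ratios over the median ratio. A mitochondrial maximum of 10% gave 1 lower at E15.5 (from 2). A Ly6d minimum of 1 gave 2 higher (from 4), a Pi16 Dpp4 minimum of 3 gave 4 lower (from 2) and a myoepithelial minimum of 2 gave 0 lower (from 2). Without the E15.5 cells with Krt1 or Krt10, 1 was lower between tissues at E15.5 (from 2). In epithelium 1 was then higher from E13.5 to E15.5 (from 2) and 5 from E15.5 to P0 (from 3). In Ly6d high cells 0 were lower (from 1). Leaving out the 2 cells with Krt4 gave 5 higher from E15.5 to P0 in epithelium (from 3). Apart from the reversals on near-empty classes, the cause of these moves was not tested. No paired analysis was possible because each stage was 1 library with no replicates.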
